A study of Mus musculus with 10 samples.

Results

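The S100 fused genes of the mouse and the factors that process filaggrin were followed through 10 genes in the epithelium of the gum. They were the 7 S100 fused genes Crnn, Flg2, Flg, Hrnr, Rptn, Tchh and Tchhl1, the protease genes Casp14 and Asprv1, and Cdsn, a gene of the junctions between cornified cells. Members were chosen by name, with earlier results of these data known. All 10 were found among the 55414 genes of the deposited table, and 9 passed the filter on low counts. The samples were 5 libraries of polyadenylated RNA from buccal gingival epithelium, on the cheek side of the teeth, and 5 from palatal gingival epithelium, on the side of the palate. The epithelium of all of them was treated with the enzyme Dispase and peeled off under a microscope, and the 2 sides were kept apart. Strain, age, sex, treatment and microbial status are not given in the labels of these libraries, and the labels do not tie the libraries of a side to different mice. The p-values therefore reflect the scatter among these libraries alone, and that scatter may be technical. A comparison of pooled mice that the series' design text mentions was not analysed here. The buccal libraries held 29317011 to 37234192 counts each, the palatal ones 25868777 to 35583168.

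S100 fused proteins join a calcium-binding S100 domain to a long tail of repeats and are stored in keratohyalin or related granules of the upper epithelial layers. Profilaggrin is the best known: proteases cut it into filaggrin units that bundle keratin filaments, and in the cornified layer these units are broken down further into free amino acids that hold water. The genes lie side by side at one end of the epidermal differentiation complex, a cluster of barrier genes on mouse chromosome 3. Casp14, Asprv1 and Cdsn lie on chromosomes 10, 6 and 17.

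The stretches just upstream of the start sites are given as a description of this neighbourhood, and no link to the differences between the sides was tested. The stretch of Tchh, a tested gene, is left out, and that of Tchhl1, which did not pass the filter, is shown. The following are the 150 bases before the RefSeq start of 6 of the genes, in GRCm38.p6, all on the plus strand, at chr3:93144639-93144788 for Crnn, chr3:93197123-93197272 for Flg2, chr3:93273396-93273545 for Flg, chr3:93319599-93319748 for Hrnr, chr3:93393549-93393698 for Rptn and chr3:93468604-93468753 for Tchhl1. Capitals mark matches to TGANTCA, the letters of the AP-1-like motif, which reads the same on both strands.
Crnn: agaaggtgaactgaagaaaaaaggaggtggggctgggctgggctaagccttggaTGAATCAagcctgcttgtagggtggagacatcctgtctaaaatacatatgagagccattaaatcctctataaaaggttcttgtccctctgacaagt
Flg2: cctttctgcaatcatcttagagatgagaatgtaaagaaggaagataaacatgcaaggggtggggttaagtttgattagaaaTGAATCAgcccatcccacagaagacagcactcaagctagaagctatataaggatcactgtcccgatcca
Flg: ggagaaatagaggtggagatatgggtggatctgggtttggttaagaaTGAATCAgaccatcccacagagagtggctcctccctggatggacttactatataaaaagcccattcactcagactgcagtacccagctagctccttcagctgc
Hrnr: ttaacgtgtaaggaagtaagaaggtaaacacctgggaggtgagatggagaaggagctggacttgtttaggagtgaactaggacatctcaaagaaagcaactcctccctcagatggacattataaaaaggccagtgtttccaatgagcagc
Rptn: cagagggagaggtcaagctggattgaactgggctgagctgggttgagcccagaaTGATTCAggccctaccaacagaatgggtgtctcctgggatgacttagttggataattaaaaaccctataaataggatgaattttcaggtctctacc
Tchhl1: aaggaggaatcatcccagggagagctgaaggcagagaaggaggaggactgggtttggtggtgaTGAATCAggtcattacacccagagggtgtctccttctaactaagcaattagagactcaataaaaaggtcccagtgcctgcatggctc
Of the 7 S100 fused genes, 5 held a match within 250 bases upstream, in Crnn, Flg2, Flg, Rptn and Tchhl1. The first base of the match lay 96, 69, 103, 96 and 87 bases before the start in those genes. In 4 of them the letters were TGAATCA and in Rptn TGATTCA, the same letters read on the other strand. Hrnr and Tchh held no match in this window, and neither did Casp14, Asprv1 or Cdsn. Over all 32851 RefSeq promoters of that length 6.75% held a match, and so did 16 of 54 (29.6%) other genes of the complex that have a promoter entry. Both shares count a match with any base at N. The share for TGAATCA or TGATTCA alone was not computed. The letters TATAAA on the gene's strand stood upstream of Crnn, Flg, Hrnr and Rptn, against 7.59% of all promoters and 20 of the 54 other genes of the complex (37%). The letters AACCGGTT, a Grhl motif searched on both strands, stood upstream of 0 of the 7 genes and of 0.116% of all promoters. These motifs were chosen after the sequences had been read, and a match is a description of letters, not of a binding site.

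Palatal epithelium carried more transcript of every S100 fused gene that could be tested, whereas both protease genes were lower there. Of the 9 tested members 7 were higher and 2 lower in palatal libraries by the quasi-likelihood test of edgeR (p-values adjusted by Benjamini and Hochberg, threshold 0.05), against 18.7% of all 14062 tested genes higher and 20.3% lower (38.9% in all). The sides did not overlap for 8 of the 9, against 28.3% of all tested genes. Of the 6 tested S100 fused genes, 5 were at least 4-fold higher in palatal, against 1.42% of tested genes. Since the members were chosen with earlier results of these data known, these counts are a description and not an independent test against the shares. The 9 tested members had at least 34 counts in every library of both sides, so none of them entered the test through its higher side alone. In bulk samples, fewer cells of a type and less RNA per cell cannot be told apart.

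**Figure D1:**
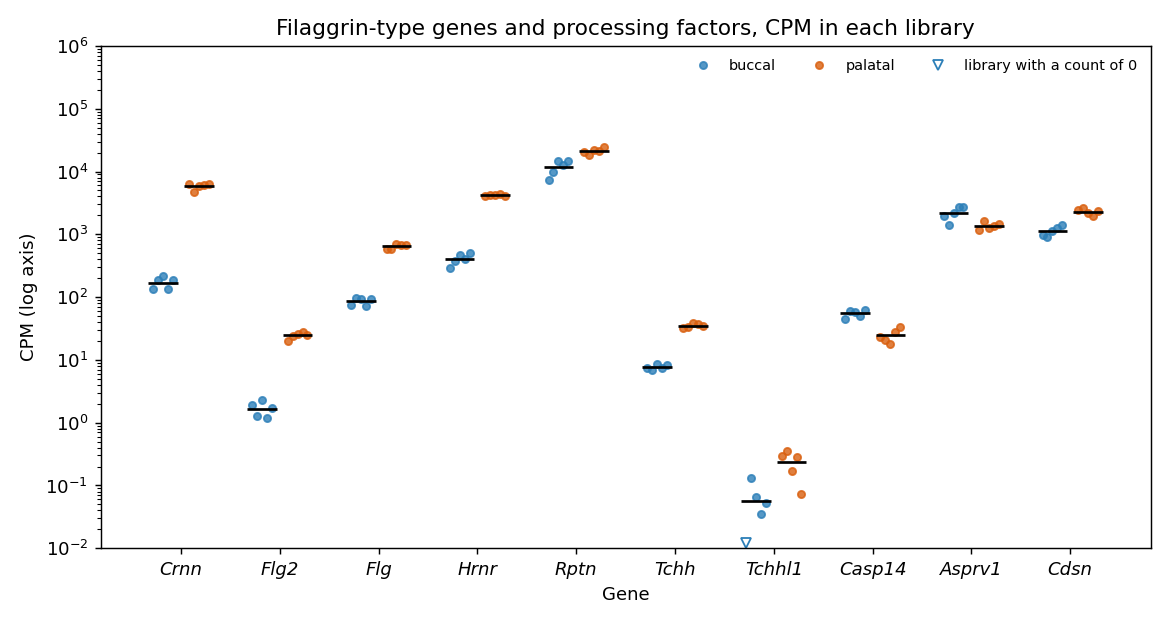
CPM (library-size-scaled counts, log axis) of each gene in each library; points are libraries, 5 buccal and 5 palatal, bars are means and the open triangle is a buccal library with a Tchhl1 count of 0. Crnn, Flg2, Flg, Hrnr, Rptn, Tchh and Cdsn were higher in all 5 palatal libraries, Casp14 was lower in all 5, and the points of Asprv1 and Tchhl1 overlap.

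Crnn (ENSMUSG00000078657) encodes cornulin, a protein of stratified squamous epithelium of the mouth and oesophagus, and it had the largest difference of the members. Its level was 132.2, 183.9, 216.1, 132.3 and 185.8 CPM (CPM being counts scaled to TMM-adjusted library size) in buccal libraries 1 to 5. In palatal libraries 1 to 5 it was 6346, 4747, 5953, 6202 and 6337 CPM. The lowest palatal library thus stood far above the highest buccal one, and palatal library 2 lay below the other palatal libraries. The log2 fold change was 5.12 ± 0.16 (SE, n = 5 per side; edgeR adjusted p = 1.43e-11), a 34.8-fold difference that ranked 17 of the 14062 tested genes from the most palatal down.

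The filaggrin genes and hornerin formed the next step. Flg (ENSMUSG00000102439), which encodes profilaggrin, stood at 74.8, 98.2, 92.0, 72.1 and 91.9 CPM in buccal libraries and at 575.3, 583.7, 689.9, 675.1 and 685.2 CPM in palatal libraries. All palatal libraries were above all buccal ones, and the fold was 7.48 (log2 2.90 ± 0.10 SE, edgeR adjusted p = 3.61e-11). Flg2 (ENSMUSG00000049133), which encodes a filaggrin-like protein, was scarce on the buccal side, at 1.93, 1.28, 2.26, 1.17 and 1.70 CPM. In palatal libraries Flg2 reached 20.0, 24.3, 25.9, 27.9 and 25.1 CPM, again with no overlap. The log2 fold change of Flg2 was 3.87 ± 0.15 (SE, edgeR adjusted p = 1.09e-10). Hrnr (ENSMUSG00000041991), which encodes hornerin, a filaggrin-like repeat protein, stood at 295.9, 379.1, 460.7, 401.9 and 506.2 CPM in buccal libraries. In palatal libraries it stood at 4047, 4215, 4286, 4450.2 and 4143 CPM, a narrow range well clear of the buccal values. The log2 fold change of Hrnr was 3.37 ± 0.13 (SE, edgeR adjusted p = 8.77e-11).

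Rptn (ENSMUSG00000041984) encodes repetin, a protein of filiform papillae and forestomach epithelium, and had the highest level per kilobase of the members on both sides and the smallest difference among the tested S100 fused genes. Its buccal levels were 7255, 9906, 14729, 12919.6 and 14609 CPM, spread over a range in which library 1 was lowest. The palatal levels were 20681, 18301, 21928, 20899 and 24131 CPM, all above the buccal ones. The fold was 1.78 (log2 0.83 ± 0.17 SE, edgeR adjusted p = 0.00117). In GENCODE M21 the short unclassified model Gm37857 shares 45 exon bases with Rptn on the same strand; it had 9 to 50 counts per library, against 225474 to 777250 for Rptn.

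Tchh (ENSMUSG00000052415) encodes trichohyalin, which hardens the inner root sheath of hair and the filiform papillae of the tongue. It was low on both sides, at 7.37, 7.00, 8.60, 7.29 and 8.31 CPM in buccal and 32.0, 33.5, 38.4, 36.6 and 35.2 CPM in palatal libraries. The sides did not overlap, and the log2 fold change was 2.19 ± 0.08 (SE, edgeR adjusted p = 6.21e-11). Hair markers were set beside it: of the 19 hair follicle and inner root sheath genes found, 4 were tested, Krt75 and Foxn1 higher and Krt32 and Krt35 lower. The inner root sheath keratin genes Krt25, Krt26, Krt27, Krt28, Krt71, Krt73 and Krt74 had means below 1 CPM on both sides, and Krt72 and the hair keratin gene Krt81 had 0 counts in every library. The summed level of the hair list was 64.0 to 79.9 CPM in buccal and 77.8 to 88.9 CPM in palatal libraries, mostly from Krt32 and Foxn1. Tchhl1 (ENSMUSG00000027908), a trichohyalin-like gene, was barely detected, with 0, 4, 2, 1 and 2 counts in buccal and 9, 11, 6, 7 and 2 counts in palatal libraries. Tchhl1 overlapped between the sides, since palatal library 5 lay below buccal library 2, and it did not pass the filter. Its mean was 0.0567 CPM in buccal and 0.234 CPM in palatal libraries (exact two-sided permutation p = 0.0159), and without a filter its log2 fold change was 1.98 ± 0.57 (SE, edgeR adjusted p = 0.00597 over 29221 genes).

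The 2 protease genes among the members were lower on the side where Flg transcript was higher. Casp14 (ENSMUSG00000005355), a caspase of cornifying keratinocytes that takes part in breaking filaggrin down, stood at 45.5, 59.1, 58.1, 49.1 and 62.8 CPM in buccal libraries. In palatal libraries Casp14 stood at 23.1, 20.7, 17.9, 28.2 and 33.3 CPM, all below the buccal ones. The fold was 2.23 toward buccal (log2 fold change -1.16 ± 0.15 SE, edgeR adjusted p = 5.09e-05). Asprv1 (ENSMUSG00000033508), the retroviral-like aspartic protease that cuts the linkers of profilaggrin, stood at 1983, 1391, 2158, 2757 and 2715 CPM in buccal libraries. In palatal libraries it stood at 1185, 1648, 1257, 1342 and 1439 CPM. Buccal library 2 fell among the palatal values, so the sides overlapped for Asprv1. Its log2 fold change was -0.68 ± 0.16 (SE, edgeR adjusted p = 0.00400), and without buccal library 2 it was -0.81 (edgeR adjusted p = 1.08e-04). That was the strongest value with a single library left out. The weakest was -0.59, and the highest edgeR adjusted p with a single library left out was 0.0146.

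Cdsn (ENSMUSG00000039518) encodes corneodesmosin, the adhesive glycoprotein of corneodesmosomes, which hold cornified cells together until they are shed. It stood at 992.4, 911.1, 1149, 1259 and 1389.5 CPM in buccal and 2394, 2646, 2146, 1949 and 2311 CPM in palatal libraries, with no overlap. The difference was 1.01 on the log2 scale (SE 0.12, edgeR adjusted p = 9.65e-06).

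The members did not differ between the sides by one common factor. The ratio of each of 8 members to Flg within the same library was compared between the sides, and all 8 comparisons gave an exact two-sided permutation p of 0.00794 (adjusted p = 0.00794), the smallest that 5 against 5 can give. Relative to Flg, Crnn was higher in palatal by 2.23 log2 units, Flg2 by 0.95 and Hrnr by 0.48. Relative to Flg, the difference was -0.73 for Tchh, -1.89 for Cdsn and -2.03 for Rptn, all lower in palatal. The largest shifts in ratio were those of the proteases. Flg itself was higher in palatal by 2.90 log2 units, which lowers the ratio of any gene that does not change. The share of all tested genes whose ratio to Flg would separate the sides was not computed. The count of 8 therefore does not set the members apart from other genes. The log2 fold changes of Casp14 and Asprv1 themselves were -1.16 and -0.68. Casp14 transcript went from a log2 ratio to Flg of -0.64 ± 0.09 on the buccal side to -4.73 ± 0.34 on the palatal side (SD, n = 5), a difference of -4.09. Asprv1 went from 4.65 ± 0.53 to 1.09 ± 0.24, a difference of -3.55.

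**Figure D2:**
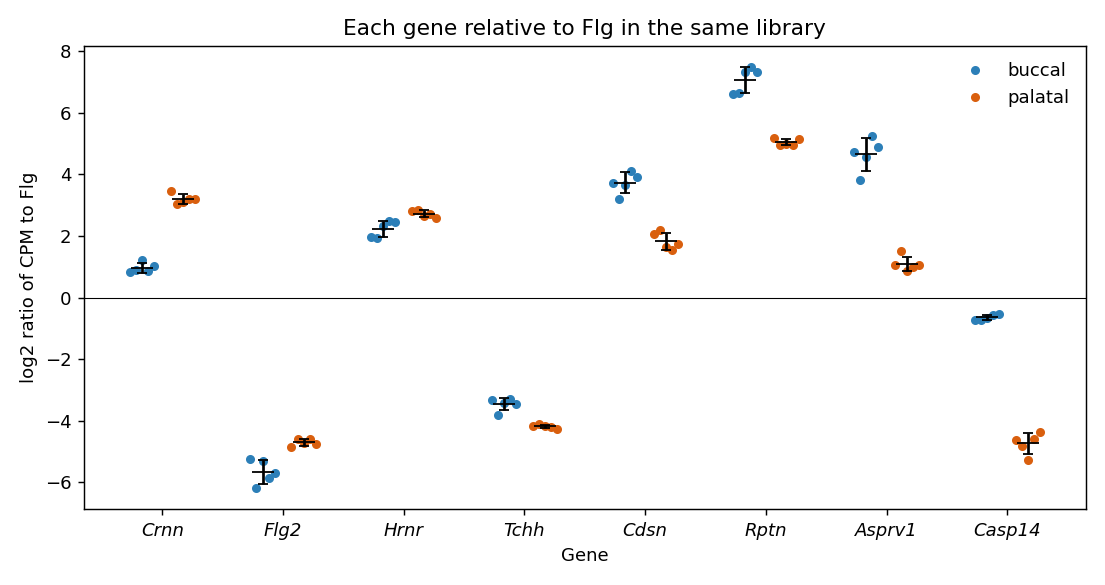
The log2 ratio of each gene's CPM to that of Flg in the same library is shown. Points are libraries (5 buccal, 5 palatal), black marks are means with SD, and the line at 0 is a CPM equal to that of Flg. CPM is not scaled to transcript length here, so the line does not mark an equal level per kilobase. Crnn, Flg2 and Hrnr sit higher in palatal than in buccal libraries, and Tchh, Cdsn, Rptn, Asprv1 and Casp14 lower, with no overlap between the sides for any of the 8. The share of all tested genes without overlap in this ratio was not computed.

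The make-up of the family's counts also differed between the sides. The 7 S100 fused genes together held 1.27% ± 0.32 of all counts on the buccal side and 3.15% ± 0.24 on the palatal side (SD, n = 5), with ranges of 0.823% to 1.55% and 2.75% to 3.40%. Within the family's counts Rptn took 94.5% ± 0.89 on the buccal side and 66.1% ± 1.40 on the palatal side. Crnn took 1.40% ± 0.32 and 18.4% ± 1.17, Hrnr 3.32% ± 0.37 and 13.3% ± 1.26, while Flg took 0.723% ± 0.206 and 2.006% ± 0.126, and Flg2, Tchh and Tchhl1 each took less than 1% on both sides. These are shares of counts, not of molecules, since the transcripts differ in length.

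Levels between genes were compared as CPM per kilobase of the longest transcript in GENCODE M21. On the buccal side Rptn (2866 ± 781 CPM per kilobase, SD, n = 5) and Asprv1 (1423 ± 366) led and overlapped between libraries, followed by Cdsn (425.8 ± 72.5) and Crnn (91.3 ± 19.8). Hrnr (36.5 ± 7.19) and Casp14 (23.5 ± 3.12) overlapped, and Flg (5.92 ± 0.80) and Tchh (1.32 ± 0.12) came after them. Flg2 (0.0802 ± 0.022) and Tchhl1 (0.0275 ± 0.023) were lowest and overlapped. On the palatal side Rptn (5110 ± 510) was followed by Crnn (3176 ± 361). Asprv1 (888.3 ± 116) and Cdsn (854.7 ± 97.9) came next and overlapped. Below them stood Hrnr (378.0 ± 13.6), Flg (44.3 ± 3.95), Casp14 (10.6 ± 2.64), Tchh (6.03 ± 0.43), Flg2 (1.18 ± 0.14) and Tchhl1 (0.113 ± 0.054), with no overlap between neighbours. Crnn thus stood below Cdsn in buccal and above it in palatal libraries, and Flg stood below Casp14 in buccal and above it in palatal libraries.

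Repeats limit what these levels mean for the longest members. Of all windows of 122 bases, the read length, in the longest transcript, 67.1% in Flg, 66.8% in Hrnr and 51.1% in Flg2 occurred more than once in that transcript, against 1.19% in Tchh and 0% in the other 6 genes. None of the windows of the 10 genes occurred in a transcript of another gene, since the bases that Rptn shares with Gm37857 are fewer than a window. How reads with several matches were counted is not given in the sources used here. Per kilobase of windows that occur once, Hrnr stood at 111.1 ± 21.9 in buccal and 1149 ± 41.4 in palatal libraries, and Flg at 18.2 ± 2.45 and 135.9 ± 12.1. On that scale palatal Hrnr stood above Asprv1 (963.6 ± 126) and Cdsn (895.2 ± 103) on average and overlapped Asprv1 between libraries. Buccal Hrnr overlapped Crnn (97.6 ± 21.1), and buccal Flg overlapped Casp14 (24.8 ± 3.30). The comparison of one gene between the sides is on the same transcript and does not change with this scale.

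Along the epidermal differentiation complex the S100 fused genes were the last group before S100a11 and S100a10, in the gene order of RefSeq on GRCm38.p6. From S100a1 to S100a10 the table held 88 genes of the complex, of which 63 were tested. Of these, 26 were higher and 25 lower in palatal libraries, against 18.7% and 20.3% of all tested genes, and the median log2 fold change was -0.11. All 6 tested S100 fused genes were higher, with a median of 3.14, and among the other 57 tested genes 20 were higher and 25 lower, with a median of -0.36. Higher genes outside the family included 2310050C09Rik, between Lce1l and Lce3a (3.15), and Ivl (1.86), both above the 0.83 of Rptn. The Lce3 genes, which lie on the Crnn side of the group and encode late envelope proteins, were lower in palatal in all 6 cases, with log2 fold changes from -1.45 to -0.76. Crct1, between Lce3f and Crnn, was also lower (-1.17). On the other side S100a11 stood at -0.09 and did not pass the test (edgeR adjusted p = 0.558), and S100a10 was lower (-0.21). The 13 tested Lce1 genes, beyond Lce3 as seen from Crnn, were all higher, with a median of 0.95. The Sprr genes, beyond Lce1, encode small proline-rich envelope proteins, and 12 of the 15 tested were lower and the other 3 did not pass, with a median of -1.62. Between Flg and Hrnr the pseudogene Rplp0-ps1, which lies inside the Flg gene, went from 0.0906 to 1.05 CPM (log2 fold change 3.43).

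**Figure D3:**
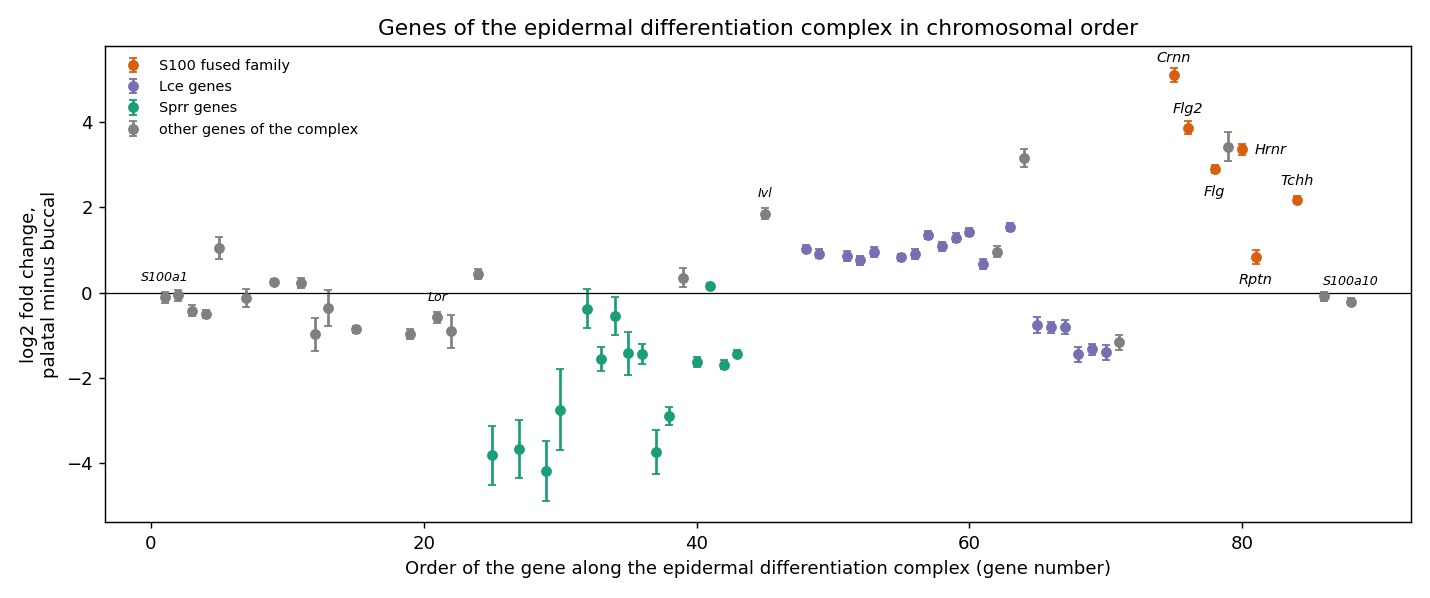
The log2 fold change (palatal minus buccal, with SE bars) of the 63 tested genes against their order in the complex, numbered from S100a1 to S100a10 over the 88 genes in the table; colours mark the S100 fused, Lce and Sprr genes. The 6 tested S100 fused genes lie between 0.83 and 5.12, next to the 6 Lce3 genes, which lie between -1.45 and -0.76.

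Genes of filaggrin processing outside the members split between the sides. Of 24 listed genes 22 were tested. Palatal libraries had 6 of them higher and 7 lower, against 18.7% and 20.3% of all tested genes. The list's median log2 fold change was -0.05, against 0.01 over all tested genes. Among the higher were Padi1, a deiminase that converts arginine to citrulline in filaggrin and keratin (mean 77.5 ± 12.6 CPM on the buccal and 167.4 ± 18.1 CPM on the palatal side, SD, n = 5), and Hal, the histidase that makes urocanate from histidine (0.154 ± 0.12 and 0.623 ± 0.15 CPM). The kallikrein protease genes Klk5 and Klk7 were also higher, by 0.75 ± 0.10 and 0.57 ± 0.11 log2 units (SE), as was Spink5, the gene of their inhibitor, by 0.88 ± 0.10. The sixth was Ctsl, a cathepsin gene, by 0.53 ± 0.10. Among the lower were Blmh, bleomycin hydrolase, which takes filaggrin peptides to free amino acids (540.3 ± 60.5 and 309.1 ± 40.2 CPM, log2 fold change -0.81 ± 0.10), and Capn1, calpain (-0.49 ± 0.07). Ctsd, Lgmn, Tgm3, Tmem79 and Padi4 were lower too, at -0.64, -0.42, -0.34, -0.35 and -2.27, with Padi4 below 1 CPM on both sides. In the edgeR test these 13 genes had adjusted p from 1.89e-06 for Padi1 to 0.0141 for Tmem79. The other 9 tested genes did not pass, among them St14 (0.03 ± 0.06, SE), Prss8 (0.16 ± 0.10) and Furin (-0.11 ± 0.11), which encode proteases that act on profilaggrin or its activation, and Tgm1 (-0.08 ± 0.07). Cela2a had 0 counts in every library, and Padi3 was below the filter, at 0.0916 CPM in buccal and 0.492 CPM in palatal libraries.

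Partners of corneodesmosin were mostly higher in palatal, as Cdsn was. Of 10 junction genes 6 were higher and 2 lower, against 18.7% and 20.3% of all tested genes. Their median log2 fold change was 0.37. Dsc1 and Dsg1a, the desmosomal cadherins of upper layers, were higher by 1.67 ± 0.17 and 0.98 ± 0.08 (SE; edgeR adjusted p = 3.47e-06 and 4.26e-07). Dsg1c, Dsg1b, Dsp and Pkp1 followed at 1.04, 0.69, 0.39 and 0.34. The Dsg1 genes are close copies, so how reads were divided among them is uncertain. Ppl and Evpl, which encode plakins of the cornified envelope, were lower at -0.40 ± 0.13 and -0.23 ± 0.09 (edgeR adjusted p = 0.0273 and 0.0413). Neither call held without buccal library 3, 4 or 5 or palatal library 1, 2 or 3, and that of Evpl was also lost without palatal library 4 or 5 (highest edgeR adjusted p over all settings run 0.0797 for Ppl and 0.107 for Evpl).

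**Figure D4:**
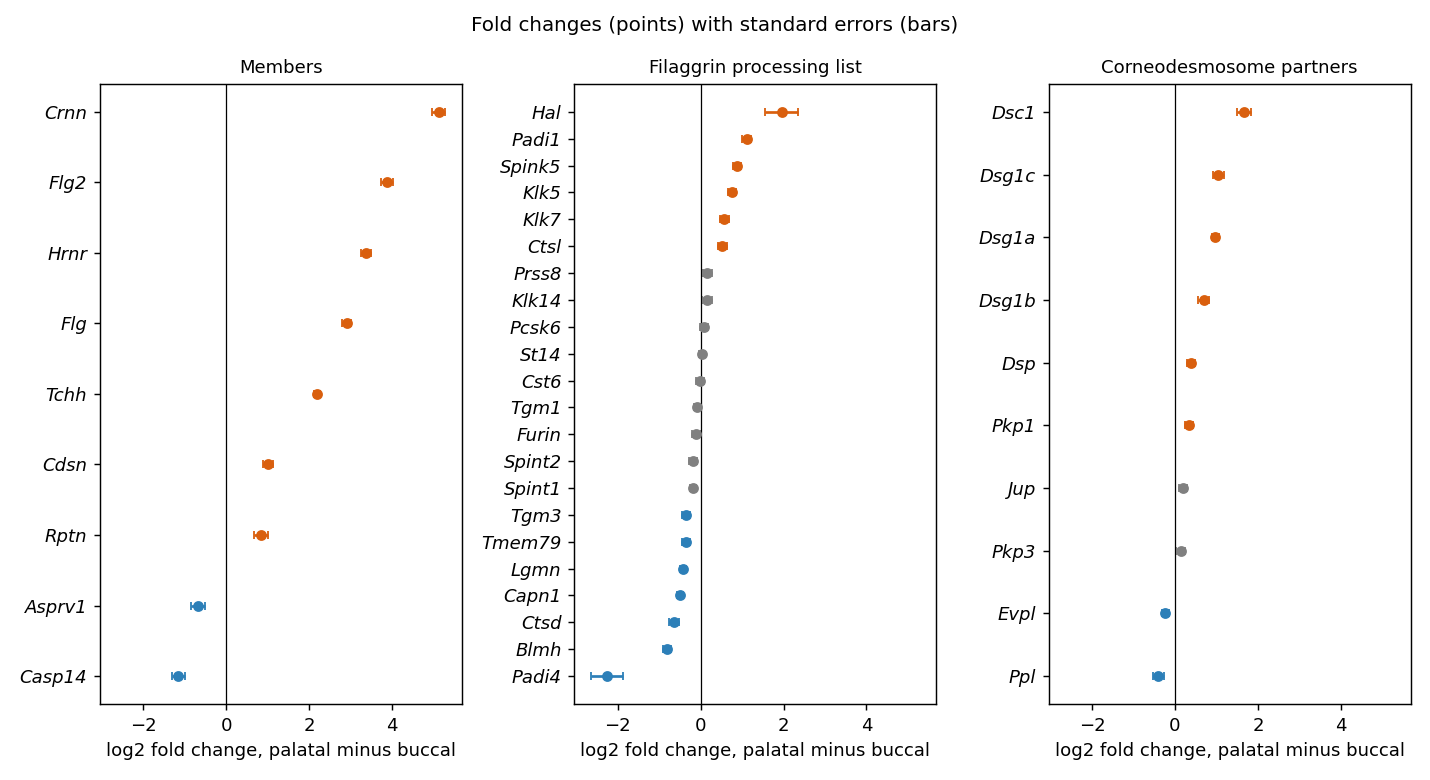
The log2 fold change (palatal minus buccal) of the tested members, the filaggrin processing list and the corneodesmosome partners; points are estimates, bars their SE, orange marks genes higher and blue genes lower in palatal at an adjusted p under 0.05, and grey genes that did not pass. The members run from -1.16 (Casp14) to 5.12 (Crnn), and the processing list from -2.27 (Padi4) to 1.95 (Hal).

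Regulators of keratinocyte differentiation were split as well, with 5 of 18 higher, 5 lower and 8 not past the test (median log2 fold change 0.12). Over all tested genes 18.7% were higher and 20.3% lower. Dlx3, a homeobox factor of epidermal appendages, was higher by 1.15 ± 0.12 (SE; edgeR adjusted p = 2.06e-06), Klf4, a factor of barrier formation, by 0.61 ± 0.13, and Prdm1, Rora and Zfp750 by 0.53, 0.49 and 0.31. Gata3 was lower at -1.25 ± 0.25, below 1 CPM on both sides, and Hopx and Grhl3 were lower at -0.41 and -0.33. Cebpb (-0.33) and Pou2f3 (-0.31) were called lower as well, with edgeR adjusted p of 0.0386 and 0.0310. Both were lost without buccal library 4 or 5 or palatal library 3 or 5, and 1 of them without buccal library 1 or 2 or palatal library 1, 2 or 4 (highest adjusted p over all settings run, edgeR or limma, 0.102 for Cebpb and 0.0835 for Pou2f3). Trp63, the master factor of stratified epithelium, stood at 0.13 ± 0.10 (edgeR adjusted p = 0.332).

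The genes whose profiles over the 10 libraries were most like those of the members were picked by the root mean square difference of centred log2 CPM among 11576 other genes. This measure includes the difference between the sides, so it favours genes with a like fold change, as with Hrnr (3.37) and Dcn (3.47). Shared regulation was not tested. Nearest to Crnn was Tfap2b, a transcription factor gene (0.20 log2 units), and nearest to Flg2 was Slc16a5 (0.27). Nearest to Flg was Fras1 (0.14), to Hrnr the proteoglycan gene Dcn (0.18) and to Tchh the collagen gene Col8a1 (0.12). Rptn was closest to Ace (0.13) and Mylk (0.14), followed by Kprp (0.15), another gene of the complex. Asprv1 was closest to Lce3c (0.098) and Lce3a (0.12), Casp14 to Pld1 (0.15) and Cdsn to Esyt3 (0.049). Among the members themselves Rptn and Cdsn were the most alike (0.26), followed by Flg and Hrnr (0.30).

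Markers were used to check the tissue and to set other cell types beside these results. Beside the counts for each list below, 18.7% of all tested genes were higher and 20.3% lower in palatal. All 11 keratinocyte markers were tested, 4 of them higher and 5 lower in palatal. The summed level of the keratinocyte markers was 127564 to 147982 CPM in buccal and 117231 to 129451 CPM in palatal libraries (exact two-sided permutation p = 0.0159). The higher ones were Krt76, a keratin of the palate and gingiva (mean 1978 and 37470 CPM in buccal and palatal), Krt10 (4009 and 18347), Krt14 (5109 and 9906) and Ivl (2.02 and 7.29). The lower ones were Krt4 (57984 and 13853 CPM) and Krt13 (58477 and 34511), the keratins of mucosal upper layers, with Krt1 (1378 and 365.2), Dsg3 (1140.0 and 700.5) and Lor (4518 and 3022). Krt5 (4500.4 and 4302 CPM) and Trp63 did not pass the test. Fibroblast and matrix markers summed to 28.7 to 36.4 CPM in buccal and 110.0 to 123.5 CPM in palatal libraries. Of the 12 markers 8 were tested, 4 of them higher and 4 not past the test, and Dcn alone went from 6.61 to 73.3 CPM, while Col1a1 went from 1.87 to 1.48 CPM and Col3a1 from 1.31 to 1.27 CPM without passing the test. Leukocyte markers summed to 53.9 to 100.2 CPM in buccal and 30.9 to 49.0 CPM in palatal libraries, with 9 of 12 tested lower and 1 higher. The higher one was Itgam (mean 1.63 and 10.6 CPM in buccal and palatal). The largest term of the sum on both sides was S100a8 (mean 32.0 and 16.3 CPM). S100a8 overlapped between the sides and did not pass the test (edgeR adjusted p = 0.0742). Junctional epithelium markers summed to 60.9 to 164.4 and 140.8 to 207.2 CPM, with 5 of 6 tested higher. Gland markers summed to between 1.30 and 11.7 and between 3.71 and 61.9 CPM, with 1 of 3 tested higher and 1 lower, and endothelial and melanocyte markers to 4.99 to 8.54 and 3.70 to 8.25 CPM, with 1 of 2 lower. The part of these cells in the differences of the members was not tested.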

How the data were processed

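Polyadenylated RNA of peeled gingival epithelium was sequenced as stranded single-end libraries, with reads of 122 bases, per the labels' protocols. Tools listed in the submitters' processing notes are DESeq2 1.36.0, HTSeq 2.01, TopHat2 2.1.1 and cutadapt 2.10, and the build listed is GRCm39; not given in the sources used here were their roles, the strand setting and the treatment of reads with several matches. The authors deposited a raw count per gene and library. They also deposited a normalized signal per gene and library, which the file headers call DESeq2-normalized counts.

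Of 55414 genes 6250 were blank and left out. Genes were kept by edgeR's filterByExpr (minimum count 10), scaled by TMM and tested with the quasi-likelihood F-test (robust, two-sided) on all 10 libraries, with Benjamini-Hochberg adjustment over 14062 genes at 0.05 (edgeR 4.0.16, limma 3.58.1, DESeq2 1.42.0, R 4.3.3). The prior count for log2 CPM was 2. The test was tried on simulated libraries of this comparison (13926 genes tested). In them 67, 67 and 66 genes with a mean of at least 1 CPM were altered 1.5-fold, 2-fold and 4-fold, upward or downward. The test found 77.6%, 94.0% and 98.5% of these, and 14 of its 194 calls were false. In the data 5474 of 14062 genes passed, and genes with lower counts were included, so these rates may not hold there. Ratios to Flg were compared by an exact permutation test. Pairs of libraries of one side differed beyond sampling noise (chi-square divided by its degrees of freedom, 7.61 to 58.0).

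The members and lists were chosen with earlier results of these data known. The text names all members, up to 8 genes per list with the smallest p plus those needed for small counts, and the 3 genes nearest in profile to each member, of which it gives some. Ctsd, Klk7, Hal, Tgm3 and Tmem79 in the processing list, and St14, Prss8, Furin and Tgm1 beside it, were named after their values were seen. So were Cebpb, Pou2f3, Trp63, the marker genes and 2310050C09Rik of the complex. Other settings tried were scaling by library totals, RLE or upper quartiles, no filter, at least 1 CPM in 5 libraries, DESeq2, limma-voom, limma-trend on the deposited normalized signal, the replicate number as a block, a prior count of 0.5 for ratios, and leaving out each library. Transcript lengths come from GENCODE M21 and promoters from RefSeq, both on GRCm38, so no GRCm39 coordinates are given. Promoter entries were found for all 10 members.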

Additional observations from a re-analysis of the deposited data

Results flagged for a closer look

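Crnn in palatal library 2 stood apart from the other palatal libraries. Its level was 4747 CPM, and the gap to the next library took a share of 0.755 of the range of the 5 palatal values, above the critical value of Dixon's test for 5 samples (0.71). This was the 1 such value among 36 groups examined (each member, and each ratio to Flg, on each side), and chance alone gives about 1 in 20 groups. Without palatal library 2 the log2 fold change of Crnn was 5.19.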

How the results depend on the processing

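No member reversed direction or lost its call in edgeR, DESeq2 or limma under any of the 171 alternatives run on the 9 tested members. Their log2 fold changes without single libraries ran from 0.70 to 0.93 for Rptn, from -0.81 to -0.59 for Asprv1 and from -1.29 to -1.05 for Casp14, and the highest adjusted p was 0.0365, for Asprv1 without a filter. The count of genes past the threshold ran from 4902 to 5679 over the scaling, filter and test alternatives. Of the corneodesmosome partners 1 gene was lower without a filter and 1 by limma-trend on the deposited values, and 0 to 2 without single libraries; the cause was not tested. Of the differentiation regulators 3 to 5 were lower without single libraries. The labels link same-numbered buccal and palatal libraries by number alone. Deviations of such pairs from the side means correlated at -0.02 to 0.33. Buccal libraries 1, 4 and 5 correlated best with the palatal library of their own number, and buccal libraries 2 and 3 with palatal library 5. Whether same-numbered libraries share an animal or a batch was not tested. With the replicate number as a block, 5518 genes passed and 3 differentiation regulators were lower, and no member's call changed. Over the 5 same-numbered pairs the sign-flip test of the ratios cannot go below the exact p of 0.0625, and all 8 ratios to Flg stood at that value (log2 differences 0.95 for Flg2, 0.48 for Hrnr, -2.03 for Rptn, 2.23 for Crnn, -0.73 for Tchh, -4.09 for Casp14, -3.55 for Asprv1 and -1.89 for Cdsn). Depth limits Tchhl1, with 9 counts over the buccal and 35 over the palatal libraries, and intervals or floors on such counts cover counting error only.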
